A study of Homo sapiens with 6 samples.

Results

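Colo800 and A375, both human melanoma cell lines, were compared in the libraries that carry the scrambled control hairpin, 1 library per line, which are 2 of the 6 libraries of the series. The members of the comparison are the 10943 of 17468 genes whose mean over these 2 libraries was at least 1 FPKM (fragments per kilobase, relative to library size). No other value entered this filter, though the members were chosen with earlier results of these data known. The other 4 libraries carry 1 of 2 hairpins against ETV1, an ETS-family transcription factor, named ETV1-sh1 and ETV1-sh2. They served here to check whether a difference between the lines was also present in them. Per the design text, cells were infected in duplicate with the hairpin viruses and RNA was collected 4 days later. Nothing available here states if a library is 1 infection or a pool of both. The treatment field of the labels gives vemurafenib (a BRAF inhibitor) at 1 uM for both scrambled libraries, DMSO for both ETV1-sh1 libraries and trametinib (a MEK inhibitor) at 5 nM for both ETV1-sh2 libraries, and the protocol mentions siRNA for 48 h and drug for 8 h, whereas the design text names no drug. The hairpin and treatment fields of the 2 scrambled libraries are the same. The title of the Colo800 one also names ETV1 while its hairpin field says scrambled, and its values were taken from the column headed COLO800-shSCR. Each line is 1 cell line, so a difference is one between these lines and cannot be told apart from a difference between these cultures.

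Melanoma arises from melanocytes, pigment cells of the neural crest. The transcription factors SOX10, PAX3 and MITF hold the melanocyte programme and drive the enzymes and structural proteins of the melanosome, the organelle that makes melanin. Melanoma cells can leave this programme, and cell lines are often placed along a range from pigmented, MITF-high states over neural crest-like states, marked by NGFR, to dedifferentiated states marked by AXL, with different matrix, adhesion and cytokine genes.

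The labelled tissue was checked first. SOX10 was at 556, 353 and 409.9 FPKM in A375 and 712, 562 and 549 in Colo800 with the scrambled, ETV1-sh1 and ETV1-sh2 hairpin, and this order of libraries is kept for all triplets of values below. S100A1, an S100 calcium-binding protein, stood at 977, 348 and 391 FPKM in A375 and 2436, 2403 and 1318 in Colo800. S100B, the S100 protein used in melanoma diagnosis, was at 118, 39.4 and 51.5 (A375) and 305, 83.9 and 159.6 (Colo800) FPKM. These markers were present in every library of both lines. MLANA (Melan-A) was near the floor in both, at 0.301, 0.373 and 0.481 (A375) and 1.85, 1.01 and 0.5095 (Colo800) FPKM, as was TYRP1 at 0.286, 0.502 and 0.604 (A375) and 1.44, 1.703 and 1.65 (Colo800). PMEL was not analysed here. Of the leukocyte markers, PTPRC did not pass 0.121 FPKM, but LYZ was at 12.2, 19.8 and 21.0 FPKM in A375. The epithelial cadherin CDH1 did not pass 0.0357 FPKM, but the epithelial marker KRT8 was at 12.3, 12.1 and 5.40 FPKM in A375.

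FPKM values summed to 589256 to 710498 per library and 10418 to 11013 genes reached 1 FPKM. Absolute depth is unknown. From the commonest ratio between low values, the depth of the Colo800 scrambled library was estimated at 0.801 of the A375 one. Only 7.85% of 1350 low genes lay at that ratio, so this is a rough estimate. On the same scale the ETV1-sh1 and ETV1-sh2 libraries were at 1.43 and 2.10 in A375 and at 0.859 and 0.768 in Colo800. The hairpin pairs thus differ more in estimated depth than the scrambled pair. Cytosolic ribosomal protein genes held 16.4% of the FPKM sum in the A375 scrambled library and 7.19% in the Colo800 one, and mitochondrially encoded genes 4.56% and 6.15%. Because values are shares of a library, these gaps shift all other genes, and in RNA from many cells fewer expressing cells and less RNA per cell cannot be told apart. ETV1 itself was at 82.8, 34.6 and 3.46 FPKM in A375 and 180.3, 54.6 and 9.798 in Colo800, a log2 difference of 1.11 in the scrambled pair.

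In the scrambled pair 1920 genes (17.5% of those compared) were at least 2-fold higher in Colo800 on the log2(FPKM + 1) scale and 1470 (13.4%) at least 2-fold lower. With 1 library per line these counts have no replicate check of their own. Of these 3390 genes, 96.3% had the same sign in both hairpin pairs, and 1090 higher (9.96% of genes compared) and 783 lower (7.16%) were at least 2-fold apart the same way in all 3 pairs, here called held. None was 2-fold apart the other way in both hairpin pairs. At 8-fold or more, 162 genes were higher and 204 lower, and 349 of these 366 (95.4%) were held. Across genes, the scrambled difference correlated with that of the ETV1-sh1 pair at r = 0.910 and with that of the ETV1-sh2 pair at 0.885; these pairs share no library, but genes are not independent of each other. A limma fit over all 6 libraries, with the line and the 3 hairpins as terms, called 3519 genes higher (32.2%) and 2742 lower (25.1%) in Colo800 at an adjusted p under 0.05. This fit has 2 residual degrees of freedom and its spread is that of the line difference over the 3 hairpins, so its p-values measure agreement between these 6 libraries. It includes the scrambled pair. For genes named below for a large scrambled difference, its values are therefore not independent of that choice.

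**Figure D1:**
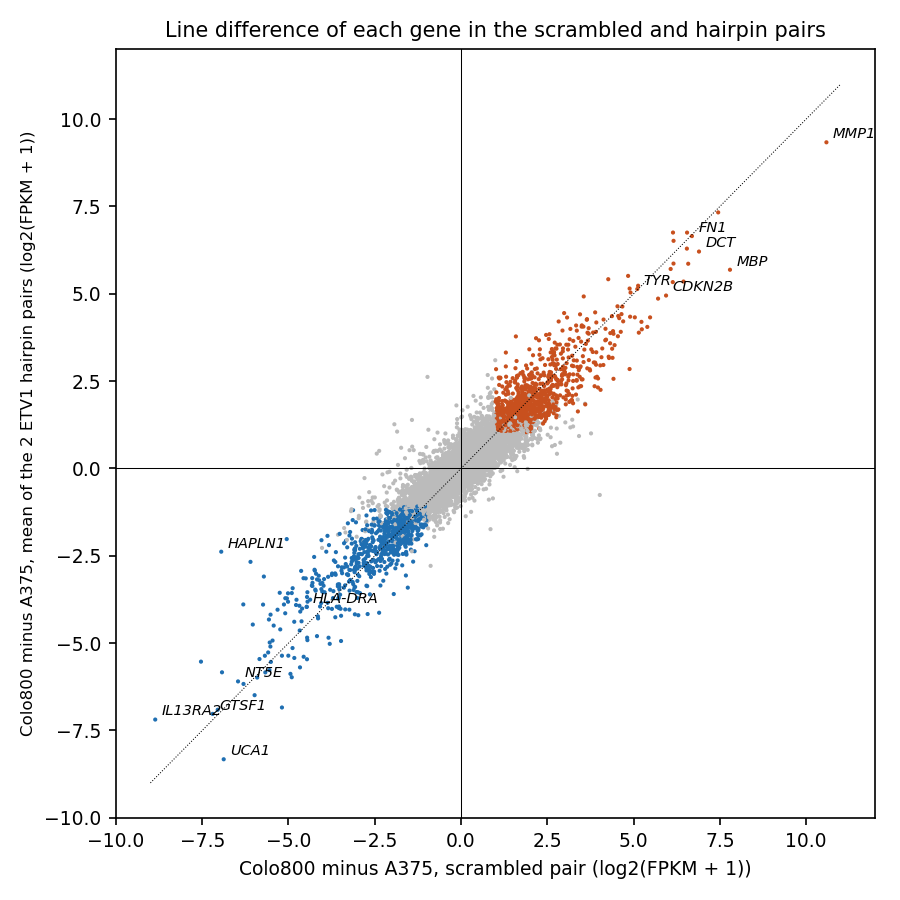
Difference of each of the 10943 genes between the lines, Colo800 minus A375 on the log2(FPKM + 1) scale, in the scrambled pair (x axis) and as the mean of the 2 ETV1 hairpin pairs (y axis). Each point is a gene; orange and blue mark the 1090 genes higher and the 783 genes lower by at least 2-fold in all 3 pairs, grey the rest, and the dotted line marks equal differences; MMP1 lies at the upper end at 10.59 and IL13RA2 at the lower end at -8.86 in the scrambled pair.

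The balance of higher and lower genes depended on the scale. Of the 2-fold calls 56.6% were higher in Colo800 as deposited, 50.8% after each library was scaled to the same median and 38.9% after ribosomal protein and mitochondrially encoded genes were left out of the library total. For the limma calls the same shares were 56.2%, 49.3% and 38.4%. The last scaling moved the median of all genes by -0.27 on the log2 scale, from 0.06 as deposited, so differences of about that size carry no direction. Each gene called higher or lower below differs by more than this shift in the scrambled pair.

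The widest gap was in MMP1, the interstitial collagenase, at 5.97, 10.7 and 4.29 FPKM in A375 and 10733, 8583 and 3017 in Colo800. The log2 differences of the 3 pairs were 10.59, 9.52 and 9.16, and the limma difference was 9.75, SE 0.27, adjusted p = 1.80e-05. MBP, a myelin protein, followed with 227 FPKM in Colo800 scrambled and 0.0267 in A375, and then the pigment gene DCT, taken up below. FN1, the matrix glycoprotein fibronectin, was at 40.8, 78.5 and 6.24 in A375 and 4322, 2714 and 2142 FPKM in Colo800 (limma difference 6.67, SE 0.52, adjusted p = 0.000276). Both MMP1 and FN1 separated the lines without overlap of libraries. The share of all genes without such overlap was not computed, so here and below non-overlap only describes a gene. Overlap is judged without regard to the hairpin pairs, so a gene that overlaps can still differ the same way in each pair. THBS2, a matricellular thrombospondin, was at 309 FPKM in Colo800 scrambled and 2.23 in A375. COL11A1, a fibrillar collagen chain, was at 166 and 0.787, and NEFH, the heavy neurofilament chain, at 88.8 and 0.0288. MBP, THBS2, COL11A1 and NEFH were held, with limma differences from 5.72 for NEFH to 6.39 for MBP. FERMT3 (the integrin activator kindlin-3), the synaptic adhesion protein CLSTN2, the serpin SERPINB2, the ribonuclease RNASE1 and the imprinted gene PEG10 complete the strongest of this side beside genes taken up below, with scrambled differences of 6.16, 6.16, 6.14, 6.14 and 5.71.

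On the A375 side the widest gap was in IL13RA2, the decoy receptor for interleukin-13, at 726, 269 and 151 FPKM in A375 against 0.565, 0.427 and 0.355 in Colo800 (limma difference -7.74, SE 0.36, adjusted p = 6.81e-05). SULF2, an extracellular sulfatase that trims heparan sulfate, was at 327, 229 and 94.3 (A375) against 0.766, 4.05 and 1.04 (Colo800). GTSF1, a factor of the germline piRNA pathway, was at 146, 127 and 146 (A375) against 0, 0.0483 and 0.05402 (Colo800). All 3 genes were held and non-overlapping. The long non-coding RNA UCA1 was at 117, 170.4 and 1093 FPKM in A375, with 0.676 and 0.0902 in the Colo800 hairpin libraries and a value next to 0 in the scrambled one. TAGLN3, a transgelin family member of neurons, was at 89.1, 135 and 49.6 (A375) against 0.141, 0.132 and 0.1802 (Colo800), and SPON2, a secreted spondin, at 86.7, 29.3 and 27.1 (A375) against 0.338, 0.429 and 0.217 (Colo800). The aminopeptidase ANPEP (CD13) was at 65.6 against 0.0542 in the scrambled pair, and the microfibril protein MFAP2 at 220.0 against 2.69. The antiviral GTPase MX2, an interferon-induced gene, was at 76.6, 53.2 and 50.2 (A375) against 0.355, 0.401 and 0.0286 (Colo800). HAPLN1, the link protein that ties hyaluronan to proteoglycans, was at 133 against 0.0872 in the scrambled pair but at 1.06 FPKM in A375 with ETV1-sh2, so that its difference ran from -6.95 to -1.04 over the pairs. PXDN, a peroxidase that cross-links collagen IV, likewise went from -6.31 to -3.07. TCN1, a vitamin B12 binder, went from -6.10 to -2.20. For these 3 genes the scrambled pair gave a wider gap than either hairpin pair. Genes were ranked on the scrambled difference, which favours this. The same held for others, such as IL13RA2 (-8.86, -7.56 and -6.81), but not for all, such as ANPEP (-5.98, -6.72 and -6.26).

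A further set was close to all-or-none. Genes passed over by name, as given with the processing, were not counted here. Of the 17468 genes of the table, 12 for A375 and 11 for Colo800 met the rule. It asks for 10 FPKM or more in every library of one line and below 0.1 in every library of the other. Those of A375 included CPE (carboxypeptidase E, which trims prohormones) at 29.4, 51.1 and 88.5 FPKM and MAP1LC3A, an autophagosome protein, at 31.8, 23.9 and 70.5. CITED4, a transcriptional coregulator, was at 43.04, 43.5 and 20.9 and the secreted ANGPTL2 at 27.8, 34.2 and 12.1. Those of Colo800 included CPXM2, a carboxypeptidase-like protein, at 29.4, 26.6 and 39.9 FPKM and PYCARD, the inflammasome adaptor ASC, at 24.9, 12.6 and 36.3. The neurofilament INA was at 10.95, 27.3 and 32.3 and PPP1R3C, a glycogen-targeting phosphatase subunit, at 24.8, 16.7 and 12.6.

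Melanocyte transcription factors were mostly higher in Colo800. Of the 13 listed, 12 passed the filter, 8 were at least 2-fold higher in the scrambled pair and 2 lower, with 8 and 1 held, and the median difference was 2.30 against 0.06 over all genes. The count of each list is to be read against the 17.5% higher and 13.4% lower of all genes, and one near these shares is no result about the list. A member that passed the filter by its level in 1 line had to differ, here and in each list below. MITF, the master regulator of pigment cells, was at 12.6, 8.61 and 10.5 FPKM in A375 and 116, 91.5 and 38.4 in Colo800 (limma difference 2.72, SE 0.30, adjusted p = 0.000736). PAX3, which acts upstream of MITF, was at 10.4, 9.63 and 8.51 (A375) and 24.8, 22.8 and 21.2 (Colo800). SOX10, shared by both lines, was closer, with pair differences of 0.36, 0.67 and 0.42 (limma difference 0.48, SE 0.13, adjusted p = 0.0211). IRF4, a pigmentation factor, was listed at 0 in A375 scrambled and at 8.52 FPKM in Colo800. SNAI2, a neural crest factor, was at 2.34, 2.43 and 3.61 (A375) and 53.99, 15.3 and 20.9 (Colo800), and ZEB2, linked to the differentiated state, at 9.42, 6.73 and 2.68 (A375) and 64.6, 53.9 and 37.9 (Colo800). TFAP2A, an AP-2 factor of the melanocyte lineage, was at 11.1, 8.87 and 4.31 (A375) and 50.04, 35.6 and 15.8 (Colo800). None of MITF, PAX3, SNAI2, ZEB2 and TFAP2A overlapped between the lines. TFAP2B, its paralogue, went the other way, at 32.1, 4.03 and 2.68 FPKM in A375 and 0, 0.0494 and 0.0712 in Colo800, and the A375 scrambled library stood well above the A375 hairpin libraries. SOX5, a SOX factor that can counter SOX10, was at 47.1, 31.97 and 26.04 in A375 and 8.52, 6.35 and 17.1 in Colo800.

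Melanosome and pigment genes followed. Of 32 listed, 30 were in the table and 25 passed the filter; 21 of these were at least 2-fold higher and 0 lower in Colo800, 15 were held, and the median was 2.18, 1.73 and 1.54 in the 3 pairs. By limma 20 were higher and 1 lower, the latter BLOC1S1 (-0.87), a subunit shared with lysosomes. The melanin enzymes led. DCT, dopachrome tautomerase, was at 0.0603, 0.0657 and 0.02297 FPKM in A375 and 125, 70.8 and 82.1 in Colo800 (limma difference 6.44, SE 0.20, adjusted p = 2.01e-05). TYR, the tyrosinase that starts melanin synthesis, was at 0.0271, 0.0758 and 0.0193 (A375) and 34.4, 84.9 and 14.8 (Colo800). The melanosomal ion exchanger SLC24A5 was at 0.0497, 0.0852 and 0.0452 (A375) and 38.6, 14.7 and 17.1 (Colo800). For all 3 the A375 libraries lay below 0.1 FPKM. GPNMB, a melanosome glycoprotein, was at 40.8, 50.4 and 62.8 (A375) and 816, 594 and 441 (Colo800), and MLPH (melanophilin), which links melanosomes to actin motors, at 3.198, 11.6 and 2.500 (A375) and 43.3, 54.97 and 18.7 (Colo800). Their transport partner RAB27A was at 1.88, 3.68 and 6.22 (A375) and 15.1, 12.5 and 19.9 (Colo800). SLC45A2, a melanosome transporter, was at 1.34, 1.64 and 0.0675 (A375) and 9.57, 12.8 and 3.29 (Colo800), and EDNRB, the endothelin receptor of melanoblasts, at 6.99, 16.4 and 7.94 (A375) and 37.4, 37.4 and 18.7 (Colo800). GPNMB, MLPH, RAB27A, SLC45A2 and EDNRB were all higher in each Colo800 library than in each A375 one. CAPN3, a calpain, was at 1.54, 0.728 and 2.91 (A375) and 19.7, 10.6 and 2.64 (Colo800), and with ETV1-sh2 the difference was -0.10. TRPM1, a melanocyte channel, was at 1.12 FPKM in Colo800 scrambled and under 0.3 in the other 5 libraries. The programme was thus uneven within Colo800: TYR and DCT above 10 FPKM in each library, MLANA and TYRP1 around 1 and OCA2 at 0.0219.

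MITF binds the E-box CATGTG, searched on both strands. Among the 250 bases before the annotated start, 11.5% of 27305 genes with a RefSeq window and 8.57% of the 8569 of them past the filter hold it, against 8 of the 22 pigment genes with a window (36.4%). A gene counts if any of its windows holds the motif, so genes with more windows have more chances. Counted by window, 9.42% of all 35116 windows hold the motif, and this share was not computed for the pigment genes. The windows of the 4 most different pigment genes that hold CATGTG are printed here. They are the 160 bases before the start, 5′ to 3′ on the strand of the gene, from RefSeq on GRCh38.p14, a later build than that of the files, with the motif or its reverse complement in capitals. A match is a description and shows no binding.
DCT (chr13:94479683-94479842, minus strand): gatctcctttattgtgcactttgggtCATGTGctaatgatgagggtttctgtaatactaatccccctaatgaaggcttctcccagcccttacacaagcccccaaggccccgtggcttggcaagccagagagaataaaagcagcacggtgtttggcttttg
SLC24A5 (chr15:48120830-48120989, plus strand): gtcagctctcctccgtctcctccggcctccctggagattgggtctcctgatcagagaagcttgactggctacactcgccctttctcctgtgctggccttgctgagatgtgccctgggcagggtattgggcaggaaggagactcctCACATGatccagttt
TYR (chr11:89177715-89177874, plus strand): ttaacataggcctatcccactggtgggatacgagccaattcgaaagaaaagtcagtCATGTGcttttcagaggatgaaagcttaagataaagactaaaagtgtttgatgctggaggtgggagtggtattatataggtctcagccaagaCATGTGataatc
GPNMB (chr7:23246615-23246774, plus strand): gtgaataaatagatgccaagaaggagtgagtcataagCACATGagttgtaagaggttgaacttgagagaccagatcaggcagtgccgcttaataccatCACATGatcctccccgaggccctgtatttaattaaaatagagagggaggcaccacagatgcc
TYR and GPNMB hold the motif at 2 places in the bases printed. DCT also has 2 in the 250 bases searched, of which the printed one begins 134 bases before the start.

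**Figure D2:**
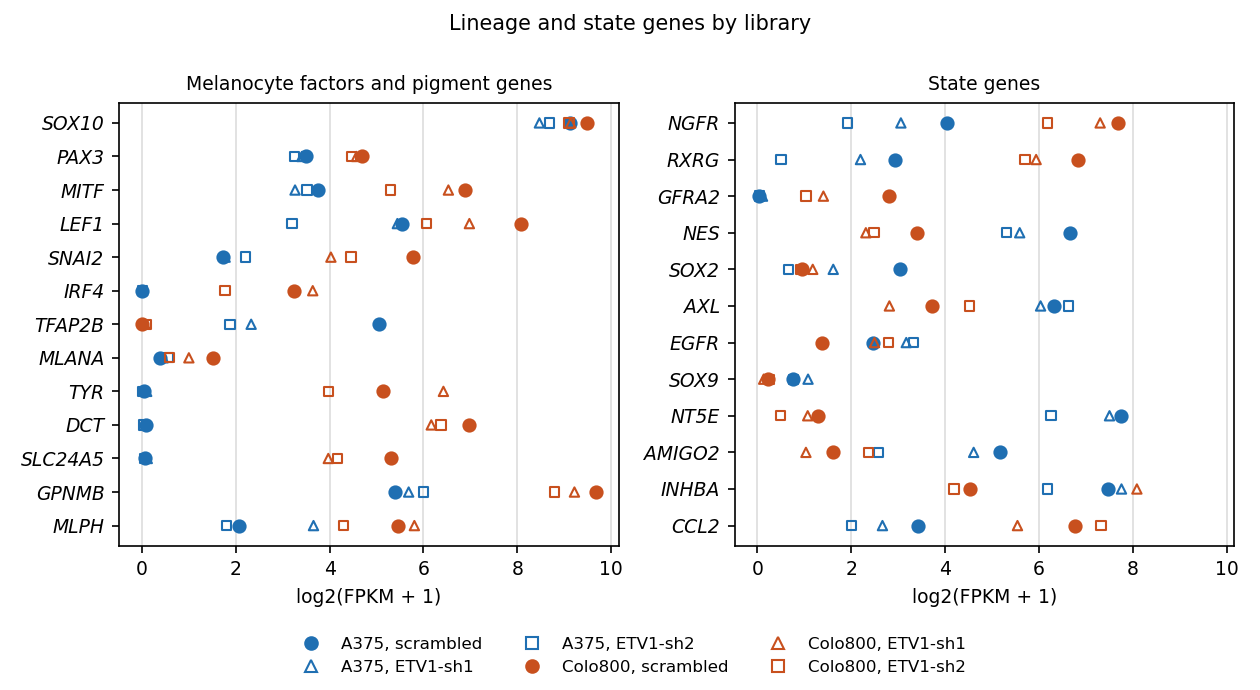
Expression of melanocyte and pigment genes (left) and of state genes (right) in the 6 libraries, as log2(FPKM + 1) on the x axis with a row per gene. Blue marks A375 and orange Colo800, filled circles the scrambled, open triangles the ETV1-sh1 and open squares the ETV1-sh2 library; DCT, TYR and SLC24A5 lie at the floor in A375, while SOX10 lies close in both lines.

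State genes did not move as a block. Of 18 neural crest-like genes past the filter, 8 were at least 2-fold higher and 3 lower in Colo800, with 6 and 2 held and a median of 0.73. NGFR, the nerve growth factor receptor that marks neural crest stem-like melanoma cells, was at 15.4, 7.32 and 2.77 FPKM in A375 and 204, 157 and 71.6 in Colo800 (limma difference 4.05, SE 0.17, adjusted p = 6.2e-05). RXRG, the nuclear receptor of that state, was at 6.66, 3.58 and 0.418 (A375) and 112, 60.2 and 50.96 (Colo800). Both separated the lines. GFRA2, a GDNF-family receptor, was at 0.0194, 0.0786 and 0.03099 (A375) and 5.97, 1.65 and 1.05 (Colo800). NES (nestin), an intermediate filament of neural progenitors, went against this at 100.2, 47.04 and 38.7 in A375 and 9.49, 3.96 and 4.58 in Colo800. SOX2, a stem cell factor, was at 7.18, 2.06 and 0.585 (A375) and 0.944, 1.26 and 0.884 (Colo800), overlapping with the ETV1 hairpins. SOX11, a SOX factor of neural progenitors, was at 3.66, 3.32 and 1.06 in A375 and at or under 0.0689 in Colo800.

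The dedifferentiated and invasive genes split almost evenly, 8 higher and 9 lower of 29 past the filter, 4 and 4 of them held, with a median of 0.23 that turns to -0.06 when ribosomal and mitochondrial genes leave the total. AXL, the receptor kinase that marks this state, was at 78.7, 64.4 and 97.4 FPKM in A375 and 12.1, 6.02 and 21.96 in Colo800 (limma difference -2.64, SE 0.22, adjusted p = 0.000341). NT5E (CD73), which makes adenosine outside the cell, was at 214, 179.9 and 75.2 (A375) and 1.43, 1.102 and 0.404 (Colo800), and AMIGO2, an adhesion protein, at 35.04, 23.4 and 4.98 (A375) and 2.04, 1.05 and 4.14 (Colo800). AXL and NT5E were lower in every Colo800 library. The chemokine CCL2 was higher in Colo800, at 9.72, 5.34 and 3.02 (A375) and 107, 45.5 and 158 (Colo800) FPKM. TWIST1, a mesenchymal factor, was at 6.54, 5.98 and 9.92 (A375) and 22.3, 14.9 and 21.6 (Colo800), and ZEB1, another, at 10.9, 16.7 and 5.205 (A375) and 3.197, 3.36 and 2.45 (Colo800). The 2 mesenchymal factors thus stood on opposite sides. WNT5A, a ligand tied to invasion, was at 18.2, 24.3 and 9.53 (A375) and 56.97, 30.2 and 32.6 (Colo800). EGFR was low in both, at 4.53, 8.01 and 9.05 (A375) and 1.61, 4.64 and 5.91 (Colo800), and overlapped. It was lower in Colo800 within each pair, by -1.08, -0.68 and -0.54 (limma difference -0.77, SE 0.18, adjusted p = 0.0126). SOX9, at 0.684 and 0.167 FPKM in the scrambled pair, did not pass the filter. INHBA, the activin A chain, was lower in the scrambled pair (-2.95) but not in the ETV1-sh1 pair (0.33), where Colo800 held 270.0 FPKM.

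Interstitial matrix genes differed in both directions: of 33 past the filter 11 were higher and 11 lower, with 9 and 6 held and a median of 0.21. Beside FN1, THBS2 and COL11A1, Colo800 had more SPP1 (osteopontin), at 279, 137 and 36.4 in A375 and 2355, 1758 and 1170.0 in Colo800. MGP, the matrix Gla protein that limits calcification, was at 2.75, 1.81 and 0.865 (A375) and 55.5, 9.87 and 28.6 (Colo800). VCAN (versican), a large proteoglycan, was at 2.15, 6.45 and 1.33 (A375) and 18.8, 28.1 and 9.04 (Colo800). These 3 were higher in each Colo800 library. A375 had more of the collagen VI chain COL6A3, at 11.6, 29.9 and 6.25 (A375) against 1.15, 1.03 and 1.13 (Colo800), and of COL8A1, at 6.49, 3.24 and 1.96 (A375) against 0.137, 0.0747 and 0.227 (Colo800). COL6A1 was at 231, 100.3 and 169 in A375 and 51.5, 49.6 and 95.2 in Colo800. SPARC, a collagen-binding matrix protein and among the most abundant transcripts of both lines, was at 5999.9, 6700.0 and 2505 (A375) and 7597, 8149.8 and 5052 (Colo800), and overlapped. COL1A1, the main fibroblast collagen, was at 1.97, 3.33 and 9.61 (A375) and 2.44, 3.08 and 12.1 (Colo800) FPKM.

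Of 16 basement membrane genes past the filter, 4 were higher and 3 lower, close to the 17.5% and 13.4% of all genes for a list of this size. LAMA1, the laminin alpha-1 chain, was at 0.698, 1.52 and 1.91 (A375) and 25.1, 19.3 and 12.7 (Colo800), whereas LAMA5, the alpha-5 chain, was at 70.5, 59.7 and 51.1 (A375) and 15.5, 8.55 and 21.8 (Colo800). LAMA1 was thus higher and LAMA5 lower in each Colo800 library. Within Colo800, LAMA1 was above LAMA5 with the scrambled and ETV1-sh1 hairpins but below it with ETV1-sh2. AGRN (agrin), a heparan sulfate proteoglycan, was at 199.7, 208 and 194 (A375) and 77.3, 114 and 104 (Colo800). COL4A1, a chain of the main collagen IV, was at 105, 152 and 75.7 (A375) and 276, 164 and 215 (Colo800), with a pair difference of 0.11 in the ETV1-sh1 libraries.

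Matrix enzymes, the plasminogen system and their inhibitors had 18 members higher and 9 lower of 35, 13 and 7 of them held, and a median of 1.16. Beside MMP1, MMP8 (neutrophil collagenase) was at 2.65, 2.62 and 0.2501 in A375 and 45.3, 46.8 and 19.7 in Colo800, and MMP3 (stromelysin-1) at 1.09, 6.88 and 0.671 (A375) and 22.98, 38.2 and 10.5 (Colo800). The gelatinase MMP2 was the reverse, at 181, 184 and 117 in A375 and 29.9, 31.7 and 39.4 in Colo800. MMP19 was also higher in A375, at 22.2, 12.5 and 26.9 (A375) against 0.378, 0.368 and 1.83 (Colo800). The membrane collagenase MMP14, an activator of MMP2, was at 113, 179 and 99.2 (A375) and 141, 192 and 193 (Colo800) and overlapped. ADAM19, a membrane sheddase, was at 202, 194 and 81.7 (A375) and 15.3, 26.4 and 13.5 (Colo800). The plasminogen activators differed by type. PLAT (tissue type) was at 239, 95.6 and 14.4 in A375 and 1004, 445 and 133 in Colo800, with pair differences of 2.07, 2.21 and 3.12 although the triplets overlap. PLAU (urokinase) was at 1.98, 1.69 and 1.53 in A375 and under 0.1 in Colo800, and its receptor PLAUR at 70.7, 63.3 and 32.6 (A375) and 10.8, 7.89 and 10.04 (Colo800). SERPINB2, an inhibitor of both activators, was at 1.397, 1.29 and 1.22 (A375) and 168, 167 and 350.1 (Colo800). Among the metalloproteinase inhibitors, TIMP1 was lower in Colo800, at 5868, 2852 and 5869 (A375) against 1248, 1355 and 1217 (Colo800), and TIMP2 higher, at 34.5, 39.9 and 30.6 (A375) against 206, 171 and 111 (Colo800).

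**Figure D3:**
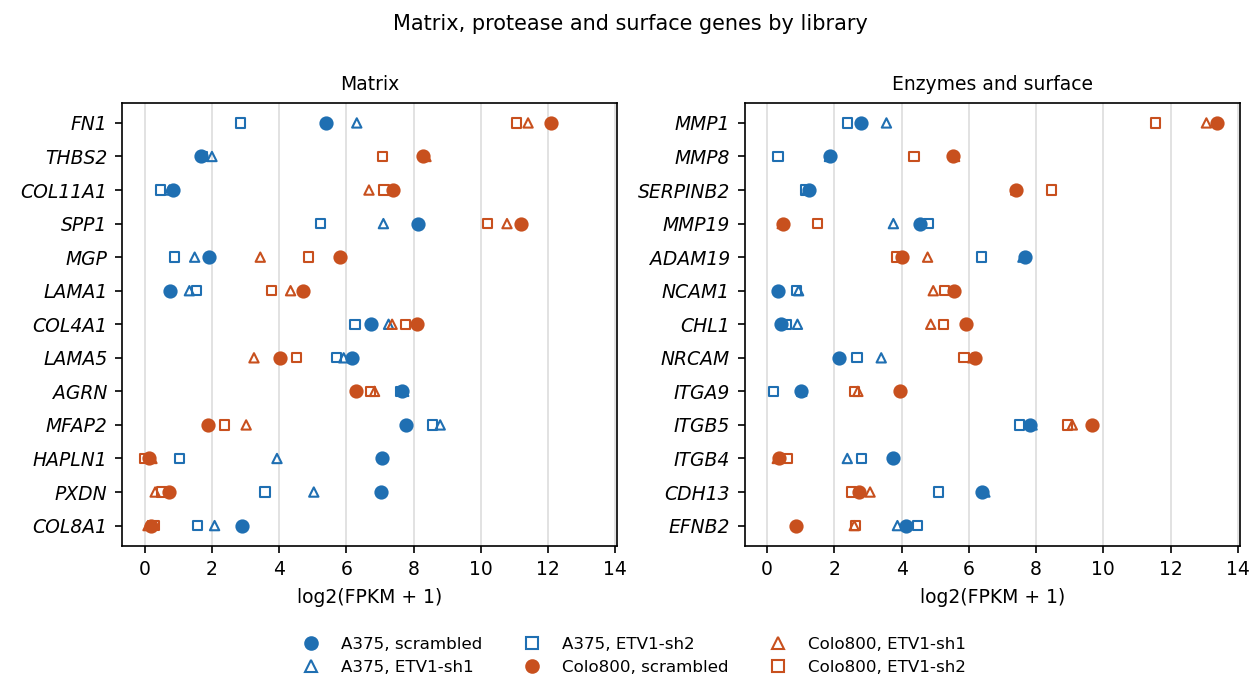
Expression of matrix genes (left) and of enzyme and surface genes (right) in the 6 libraries, as log2(FPKM + 1) on the x axis with a row per gene. Blue marks A375 and orange Colo800, filled circles the scrambled, open triangles the ETV1-sh1 and open squares the ETV1-sh2 library; MMP1 and FN1 are far higher in Colo800 and PXDN and MFAP2 far lower, and the A375 values of HAPLN1 and PXDN spread widely over the hairpins.

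On the surface, 8 of 17 integrin subunits past the filter were higher and 2 lower in Colo800, with a median of 0.97. ITGA4, an alpha chain that binds fibronectin and VCAM1, was at 18.2, 13.03 and 7.27 in A375 and 68.5, 48.95 and 37.6 in Colo800. Its relative ITGA9 was at 0.996, 1.05 and 0.1404 in A375 and 14.6, 5.51 and 5.03 in Colo800. Both were higher in each Colo800 library. ITGB5, a partner of the alpha-V chain, was at 225, 235 and 182 in A375 and 805, 540.0 and 492 in Colo800, and ITGB8, another, at 18.3, 17.8 and 4.69 in A375 and 82.2, 109.8 and 20.3 in Colo800. ITGB4, the hemidesmosome chain that binds laminin, was at 12.4, 4.23 and 5.97 (A375) against 0.275, 0.235 and 0.5204 (Colo800). ITGB5 and ITGB8 were thus higher and ITGB4 lower in each Colo800 library. Of 36 cadherins and other adhesion genes, 11 were higher and 5 lower. The neural adhesion molecules NCAM1, CHL1 and NRCAM were at 0.247, 0.348 and 3.42 FPKM in A375 scrambled and 45.7, 59.1 and 71.5 in Colo800, and were held. ICAM1, the ligand of leukocyte integrins, was at 125, 63.6 and 44.04 (A375) and 533, 203 and 285 (Colo800). CDH13, a truncated cadherin, was at 82.5, 88.2 and 33.2 (A375) and 5.66, 7.37 and 4.67 (Colo800). CDH2 (N-cadherin) was at 47.5, 37.2 and 38.1 (A375) and 55.9, 26.5 and 79.4 (Colo800) and did not separate the lines.

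Receptor tyrosine kinases had 6 members higher and 4 lower of 21. TYRO3, a relative of AXL, was at 6.38, 5.74 and 4.11 (A375) and 36.8, 20.9 and 32.2 (Colo800), opposite to AXL. ROR1, a WNT5A receptor, was at 1.56, 1.16 and 0.957 (A375) and 8.59, 6.199 and 3.63 (Colo800). MET, the hepatocyte growth factor receptor, was at 35.2, 30.9 and 7.84 (A375) and 47.9, 31.01 and 9.03 (Colo800), and ERBB3 at 156, 38.3 and 31.3 (A375) and 113, 67.6 and 73.3 (Colo800); both overlapped. KIT, the receptor of melanocyte precursors, stayed under 0.0118 FPKM in all libraries. The ephrins and Eph receptors, a system of contact signals, had 8 of 15 lower and 2 higher, 7 and 1 of them held, and a median of -1.04. EFNB2 was at 16.7, 13.7 and 21.4 (A375) against 0.8200, 5.04 and 5.18 (Colo800), EFNA1 at 22.6, 13.4 and 33.3 (A375) against 5.02, 2.98 and 7.87 (Colo800) and the receptor EPHA4 at 14.2, 28.4 and 6.22 (A375) against 1.24, 2.58 and 1.67 (Colo800). EPHA7 was at 4.55, 10.5 and 1.44 against values at or under 0.0138. EPHB3 was the held exception, at 3.28, 1.94 and 0.788 (A375) and 14.5, 7.28 and 9.89 (Colo800). Guidance genes of the semaphorin group had 8 higher and 4 lower of 30 and a median of 0.07. SEMA5A was at 0.137 and 18.8 in the scrambled pair, SLIT3 at 0.0642 and 9.17, and the semaphorin receptor PLXND1 at 29.3, 40.3 and 20.2 (A375) and 203, 278 and 185 (Colo800). ROBO2, a receptor of SLIT ligands, was at 4.83, 6.18 and 3.52 in A375 and listed at 0 in Colo800 scrambled. SEMA3C was lower in Colo800 in the scrambled pair (-3.19) but not in the ETV1-sh2 pair (0.17).

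MHC class II genes, which present peptides to CD4+ T cells, were lower in Colo800 without exception among the 12 of 14 listed that passed the filter: 12 were at least 2-fold lower, 10 were held and limma called 12 of them, with medians of -4.23, -3.15 and -3.09 in the 3 pairs. HLA-DRA, the alpha chain of HLA-DR, was at 1271, 548 and 605 FPKM in A375 and 56.4, 23.6 and 54.8 in Colo800 (limma difference -4.13, SE 0.23, adjusted p = 0.000105). CD74, the invariant chain that guides class II molecules, was at 3139, 1788 and 1884 (A375) and 425, 397 and 519 (Colo800). CIITA, the transactivator that switches the group on, was at 38.7, 18.4 and 6.61 (A375) and 3.88, 1.53 and 2.89 (Colo800). HLA-DPA1 was at 515, 211 and 262 (A375) and 42.6, 25.8 and 41.7 (Colo800), and HLA-DMA, which helps load peptides, at 144, 45.2 and 58.2 (A375) and 6.85, 1.64 and 7.12 (Colo800). None of these 5 overlapped. HLA-DPB1 was nearest, at 141, 74.5 and 89.5 (A375) and 40.99, 43.3 and 60.8 (Colo800). HLA-DQA1 and HLA-DQA2 were at 29.8 and 32.01 FPKM in A375 scrambled and at or near 0 in Colo800. Within A375 the scrambled library had the highest value of each class II gene named here. HLA genes vary between people and their copies resemble each other, so reads of DRB and DQ genes may be split or lost by allele.

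A Y-box motif, CTGATTGG, is part of the conserved class II promoter module. It is present in the 250 upstream bases of 4.59% of RefSeq genes and 6.48% of those past the filter (either strand), and in 4 of 10 class II genes with a window. These are counts by gene, as for CATGTG. The 4 windows follow as above, with the motif in capitals.
HLA-DRB5 (chr6:32530288-32530447, minus strand): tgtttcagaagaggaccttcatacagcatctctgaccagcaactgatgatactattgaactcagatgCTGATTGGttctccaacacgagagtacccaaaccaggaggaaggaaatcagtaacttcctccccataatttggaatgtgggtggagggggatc
HLA-DRB1 (chr6:32589849-32590008, minus strand): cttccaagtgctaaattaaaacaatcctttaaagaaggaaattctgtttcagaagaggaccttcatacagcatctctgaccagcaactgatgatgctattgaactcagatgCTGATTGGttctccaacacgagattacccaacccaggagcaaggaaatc
HLA-DQA2 (chr6:32741231-32741390, plus strand): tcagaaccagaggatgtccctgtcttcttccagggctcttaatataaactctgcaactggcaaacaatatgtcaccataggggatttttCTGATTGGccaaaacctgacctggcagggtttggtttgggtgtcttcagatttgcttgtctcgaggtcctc
HLA-DMA (chr6:32953098-32953257, minus strand): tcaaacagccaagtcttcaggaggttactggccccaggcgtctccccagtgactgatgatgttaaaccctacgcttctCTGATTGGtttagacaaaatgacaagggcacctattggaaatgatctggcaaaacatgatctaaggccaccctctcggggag
In the scrambled pair these 4 genes differed by -5.43, -4.77, -5.04 and -4.21 on the log2 scale.

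Class I genes did not follow. Of 21 class I and antigen processing genes, 1 was higher and 2 lower, with a median of -0.09. HLA-B was at 199.9, 194 and 157 (A375) and 172, 200.2 and 174 (Colo800), and B2M, the shared light chain, at 1577, 1776 and 1566 (A375) and 1428, 1773 and 1776 (Colo800), and both overlapped. The interferon response list had 2 higher and 4 lower of 35, MX2 the largest, with medians of 0.01, -0.54 and -0.80. TRIM22 was at 11.3, 12.4 and 13.5 (A375) and 0.786, 1.26 and 0.7996 (Colo800) and OAS2 at 2.997, 9.22 and 25.2 (A375) and 0.372, 0.147 and 1.06 (Colo800); limma called 15 members lower and 0 higher. Among immune ligands and receptors (5 higher, 7 lower of 23), CD70, the ligand of CD27, was at 183, 104 and 126 (A375) against 0.516, 0.508 and 1.72 (Colo800). TNFRSF10A, a TRAIL death receptor, was at 45.6, 35.1 and 37.3 against values at or under 0.178. MICA, a ligand of the NK receptor NKG2D, was at 21.2, 18.03 and 20.9 (A375) and 94.2, 145 and 52.5 (Colo800), and TNFRSF14, which binds BTLA, at 7.83, 18.1 and 9.83 (A375) and 47.4, 89.4 and 33.5 (Colo800). CD274 (PD-L1) was at 3.57, 4.04 and 7.199 (A375) and 2.31, 5.08 and 11.3 (Colo800), with no separation. Of the cytokine genes, 8 were higher and 9 lower of 27. IL1A was at 89.2, 51.6 and 12.1 in A375 and 0.693, 0.665 and 0.873 in Colo800, and IL24 at 295, 254 and 235 (A375) and 12.4, 6.104 and 3.37 (Colo800). LIF, a cytokine of the IL-6 family, was at 89.1, 57.97 and 63.98 (A375) and 799, 696 and 928 (Colo800). The line difference of IL32 changed sign between pairs, from -2.80 in the scrambled pair to 1.28 in the ETV1-sh2 pair.

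**Figure D4:**
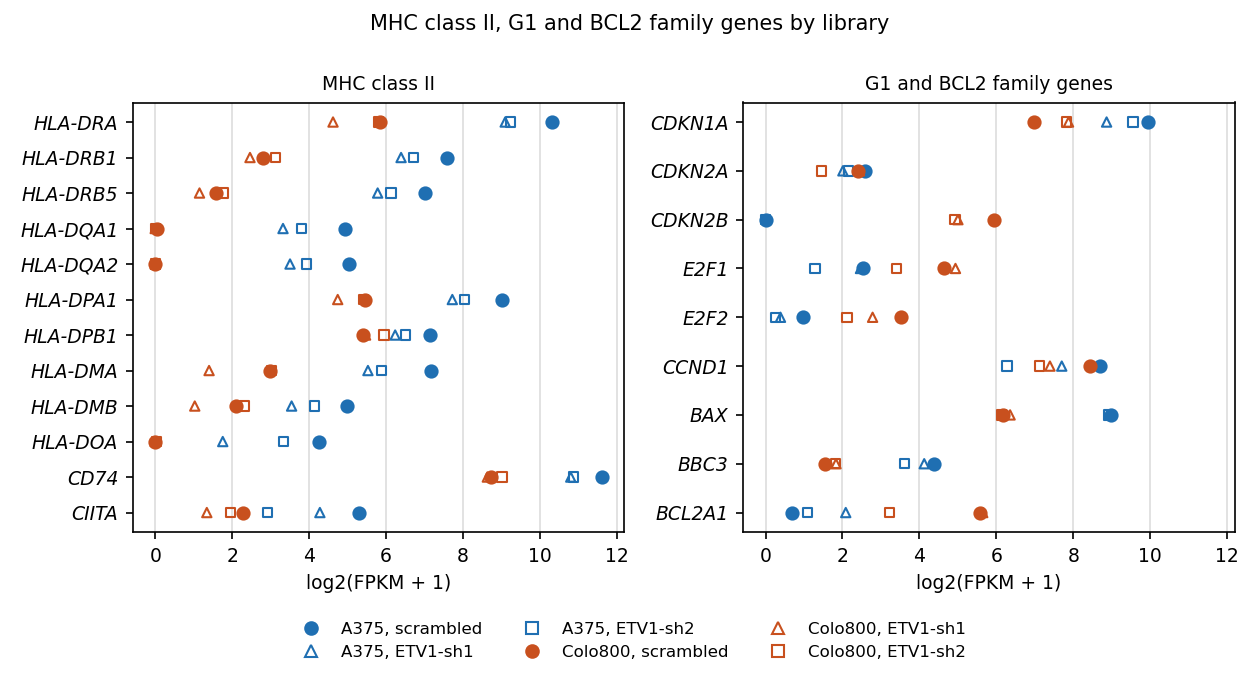
Expression of MHC class II genes (left) and of G1 and BCL2 family genes (right) in the 6 libraries, as log2(FPKM + 1) on the x axis with a row per gene. Blue marks A375 and orange Colo800, filled circles the scrambled, open triangles the ETV1-sh1 and open squares the ETV1-sh2 library; the class II genes, CDKN1A, BAX and BBC3 lie lower in Colo800, CDKN2A overlaps and CDKN2B is near 0 in A375.

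Among G1 regulators 7 of 21 were higher and 3 lower. CDKN1A, the cell-cycle inhibitor p21, was at 987, 466 and 750.4 FPKM in A375 and 126, 234 and 227 in Colo800, without overlap. CDKN2B, the CDK4/6 inhibitor p15, was at 0.00695, 0.0146 and 0.00331 FPKM in A375 and 60.9, 31.05 and 29.4 in Colo800 (limma difference 5.28, SE 0.24, adjusted p = 6.73e-05). Its neighbour CDKN2A, which encodes p16 and p14ARF, was at 4.97, 3.03 and 3.45 (A375) and 4.26, 4.44 and 1.75 (Colo800) and overlapped. MTAP, a salvage enzyme gene beside them, was lower in Colo800, at 89.1, 89.5 and 66.2 (A375) against 13.2, 13.8 and 16.8 (Colo800). E2F1 and E2F2, S-phase factors, were at 4.84 and 0.957 in A375 scrambled and 23.8 and 10.5 in Colo800. CCND1 (cyclin D1) was at 411, 207 and 76.8 (A375) and 346, 167 and 139 (Colo800) and did not separate the lines. In the BCL2 family (4 higher, 2 lower of 16), BCL2A1, an MITF-driven survival gene of melanoma, was at 0.624, 3.24 and 1.13 (A375) and 46.96, 49.1 and 8.35 (Colo800). BAX, a pore-forming death protein, was at 505, 487 and 485 (A375) and 71.6, 81.1 and 69.6 (Colo800), and the BH3-only killer BBC3 (PUMA) at 19.9, 16.5 and 11.3 (A375) and 1.91, 2.56 and 2.52 (Colo800). BAX and BBC3 were lower in Colo800 in all 3 pairs.

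Proliferation genes were higher in Colo800: 23 of 30 were at least 2-fold higher, 23 held and 0 lower, and limma called all 30 higher. The median was 1.37 in the scrambled pair and 1.91 and 3.05 in the ETV1-sh1 and ETV1-sh2 pairs. The FPKM summed over the list were lower in the ETV1 hairpin libraries of both lines. The sums were 1048, 552 and 231 in A375 and 2931, 2079 and 1372 in Colo800. By the labels these libraries also differ in drug, which cannot be told apart from the hairpin. MKI67, the Ki-67 antigen, was at 13.6, 9.54 and 0.834 in A375 and 49.3, 33.3 and 25.05 in Colo800. RRM2, the S-phase nucleotide reductase subunit, was at 137, 37.02 and 6.14 (A375) and 544, 220.3 and 138 (Colo800). NUSAP1, a spindle protein, was at 16.7, 7.88 and 4.38 (A375) and 120.0, 60.9 and 57.1 (Colo800). All 3 separated the lines, RRM2 by the narrowest margin. MYC was at 14.8, 6.38 and 1.76 (A375) and 52.7, 38.4 and 12.4 (Colo800). In DNA repair (4 higher, 1 lower of 19), MGMT, which removes alkyl groups from guanine, was at 7.02, 6.12 and 12.6 in A375 and listed at 0 in 2 Colo800 libraries, with 0.116 FPKM in the ETV1-sh2 one. FANCD2, a Fanconi anaemia protein, was at 7.34, 5.52 and 2.303 (A375) and 22.5, 17.8 and 12.6 (Colo800).

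Cytosolic ribosomal protein genes were lower in Colo800, with 27 of 74 at least 2-fold lower and 0 higher, 11 held, 54 lower and 2 higher by limma, and a median of -0.88. RPL41 was the most abundant, at 35466, 40224 and 38040.0 (A375) and 11570.0, 15268 and 11749 (Colo800) FPKM, and RPL13A was at 547, 702 and 514 (A375) and 176, 265 and 151 (Colo800). RPL35A and RPL5 were the members called higher, RPL35A at 624, 541 and 377 in A375 and 1072, 1127 and 677 in Colo800 and RPL5 at 252, 267 and 111 in A375 and 394, 437 and 171 in Colo800. Many processed pseudogenes copy these genes, so reads may be split among them.

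In metabolism, glucose uptake and glycolysis genes had 9 members higher and 3 lower of 30, with 4 and 0 held and a median of 0.60. LDHA, which makes lactate, was at 439, 271 and 152 (A375) and 1310.5, 911 and 486 (Colo800), and the lactate exporter SLC16A3 at 6.03, 10.8 and 14.8 (A375) and 36.3, 63.2 and 55.7 (Colo800). HK2 (hexokinase-2) was at 17.3, 4.698 and 7.94 (A375) and 59.4, 27.3 and 17.6 (Colo800). LDHB, the other lactate dehydrogenase chain, was at 558, 526 and 313 (A375) and 331, 403 and 195 (Colo800) and overlapped. PPARGC1A (PGC-1 alpha), an MITF-linked driver of mitochondrial genes, was at 0.849, 1.15 and 0.294 (A375) and 16.1, 11.5 and 2.38 (Colo800). The nuclear subunits of oxidative phosphorylation had 2 higher and 6 lower of 56, none of the lower ones held, and a median of -0.10. The 13 mitochondrially encoded genes had a median of 0.46, with 3 at least 2-fold higher. In the citric acid cycle list (6 higher, 3 lower of 33), IDH2 was at 4.85, 3.71 and 4.38 (A375) and 37.8, 37.8 and 23.8 (Colo800), and the malic enzyme ME3 at 6.58, 6.29 and 3.21 in A375 and at or under 0.0348 in Colo800.

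Serine and folate enzymes (4 higher, 1 lower of 18) included PHGDH, the first enzyme of serine synthesis, at 36.8, 17.4 and 15.4 (A375) and 203, 172 and 105 (Colo800), and the mitochondrial folate enzyme MTHFD2 at 62.3, 57.8 and 36.01 (A375) and 165, 197 and 137 (Colo800). Integrated stress response genes and amino acid transporters had 11 higher and 5 lower of 28, 9 and 3 held. ATF4, the factor of this response, was at 119, 137 and 82.1 (A375) and 343, 485 and 263 (Colo800), its target ASNS (asparagine synthetase) at 19.3, 10.6 and 24.2 (A375) and 123, 127 and 90.97 (Colo800), and the transporter SLC1A4 at 19.8, 5.600 and 7.79 (A375) and 160.3, 64.03 and 104 (Colo800). The glutamate transporter SLC1A3 was the reverse, at 18.8, 6.94 and 2.89 (A375) and 0.351, 0.588 and 0.342 (Colo800). In lipid metabolism (16 higher, 6 lower of 43) the apolipoprotein APOD was at 30.2, 14.4 and 16.4 in A375 and 545, 243 and 404 in Colo800, and APOE at 11.7, 4.61 and 11.3 in A375 and 104, 55.03 and 34.9 in Colo800. CPT1A, which carries fatty acids into mitochondria, was at 19.1, 18.2 and 17.9 in A375 and 0.298, 0.109 and 1.41 in Colo800. Cholesterol genes had 8 higher and 2 lower of 24; the exporter ABCA1 was at 4.04, 3.76 and 3.16 in A375 and at or under 0.0486 in Colo800. NRF2 targets and glutathione genes had 15 higher and 3 lower of 36. SLC7A11, the cystine importer, was at 5.86, 8.82 and 3.58 (A375) and 27.7, 31.9 and 31.6 (Colo800), ALDH1A1, a retinal dehydrogenase, at 0.0815, 0.0463 and 0.132 (A375) and 24.4, 16.5 and 27.8 (Colo800), and MGST1, a microsomal glutathione transferase, at 51.5, 51.1 and 20.1 (A375) against 0.5403, 3.99 and 0.282 (Colo800). The glutathione transferase GSTM1, a gene with common deletions in people, was at 12.02, 7.004 and 14.8 (A375) against 0.3401, 0.364 and 0.387 (Colo800).

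Of the signalling lists, ETS factors had 3 higher and 0 lower of 17 with 0 held; ETV5 was at 70.3, 24.5 and 55.7 (A375) and 186, 60.7 and 93.4 (Colo800) and ETV4 at 84.7, 114 and 40.8 (A375) and 63.2, 74.5 and 64.5 (Colo800). ERK output genes had 12 higher and 5 lower of 36, with a median of 0.09. DUSP6, an ERK phosphatase, was at 201, 166 and 118 (A375) and 156, 95.9 and 138 (Colo800), and DUSP4 at 141, 101 and 45.8 (A375) and 216, 152 and 89.6 (Colo800); both overlapped. SPRY1, a feedback inhibitor, was at 3.29, 2.59 and 0.273 (A375) and 25.1, 26.8 and 6.46 (Colo800), EGR3 at 18.01, 8.92 and 18.1 (A375) and 122, 116 and 148 (Colo800), and SPRED3 at 23.1, 29.9 and 13.4 (A375) against 1.88, 6.16 and 2.32 (Colo800), so members of the group separated the lines in both directions. In the MAP kinase pathway 4 of 24 were higher, near the 17.5% of all genes, and 1 lower, against 13.4% of all genes. The TGF-beta and BMP list (12 higher, 9 lower of 33) held SMAD1, at 23.03, 28.9 and 32.1 (A375) against 1.03, 1.65 and 2.74 (Colo800), and the pseudoreceptor BAMBI, at 27.8, 7.94 and 6.27 (A375) and 186, 72.5 and 88.2 (Colo800). Hippo genes had 6 higher and 3 lower of 31, also near these shares. WNT and NOTCH genes had 12 higher and 4 lower of 34, with LEF1, a WNT effector of melanocytes, at 45.5, 42.5 and 8.202 (A375) and 267, 125 and 65.9 (Colo800) and the receptor FZD7 at 3.47, 2.99 and 3.897 (A375) and 31.7, 16.4 and 19.5 (Colo800).

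HOX genes, which keep positional identity, split into 8 higher and 8 lower of 37. HOXB8 was at 39.4, 21.2 and 14.04 (A375) against 5.12, 3.26 and 1.44 (Colo800), HOXC8 at 9.21, 8.901 and 8.05 (A375) against 1.82, 2.15 and 2.65 (Colo800), and HOXA7 at 0.181, 0.469 and 0.494 (A375) and 6.44, 7.799 and 5.88 (Colo800). Cancer-testis genes, which are silent in most adult tissues, were 8 higher and 7 lower of 21 past the filter (83 listed). MAGEC2 was at 132, 131 and 135 in A375 and at or under 0.246 in Colo800, MAGEA4 at 435, 327 and 579 (A375) against 7.48, 10.5 and 8.78 (Colo800), and PAGE2 at 307, 361 and 407 (A375) against 5.39, 8.73 and 9.26 (Colo800). PAGE1 was the reverse, at 1.53, 1.34 and 3.09 (A375) and 169, 186 and 139 (Colo800), and PRAME was at 92.7, 94.4 and 72.6 (A375) and 213, 340.2 and 204 (Colo800). MAGE, PAGE and SPANX copies resemble each other, so their values are uncertain. The oncofetal list had 1 higher and 1 lower of 7, near the shares of all genes. HMGA2, the lower one, was at 779, 318 and 284 (A375) and 365, 159 and 124 (Colo800). The imprinted RNA H19, the higher one, was at 2.63, 0.901 and 0.239 (A375) and 48.7, 4.57 and 46.7 (Colo800).

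**Figure D5:**
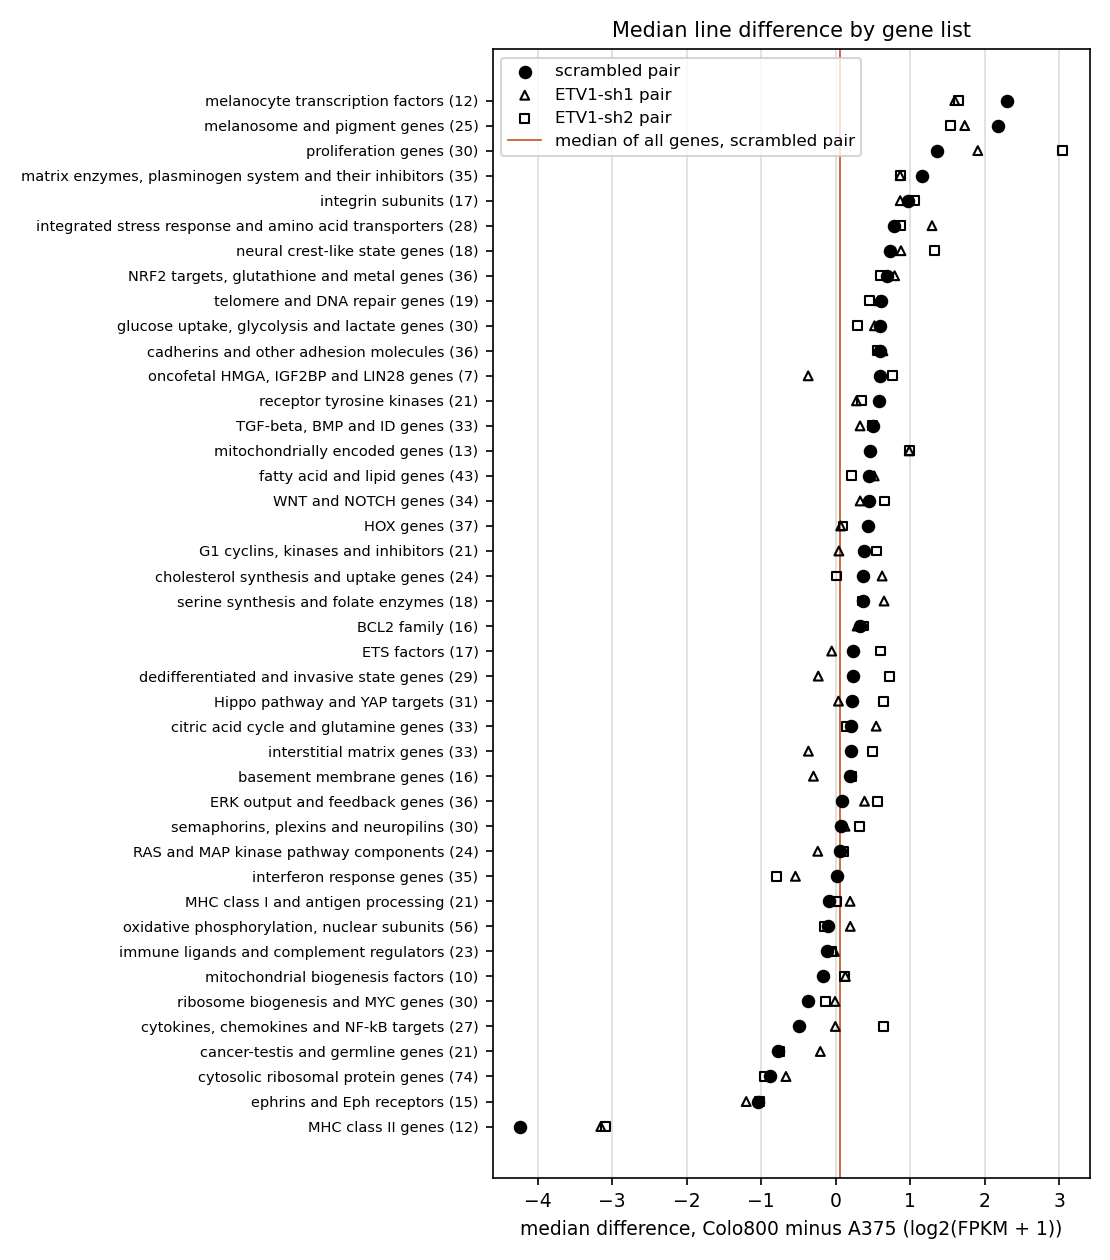
Median line difference of the gene lists shown, Colo800 minus A375 on the log2(FPKM + 1) scale (x axis), in the scrambled pair (filled circles), the ETV1-sh1 pair (triangles) and the ETV1-sh2 pair (squares), with the number of members past the filter in brackets. The orange line marks the median of all genes, 0.06; of the lists shown, MHC class II genes (-4.23) lie lowest, and melanocyte factors (2.30) and pigment genes (2.18) highest.

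Markers of other cell types were summed per library. The 7 fibroblast markers summed to 13.8 to 28.3 FPKM in A375 and 51.2 to 67.1 in Colo800. In Colo800 most of it was FAP, a surface protease of activated fibroblasts, at 2.402, 1.77 and 1.87 (A375) and 47.3, 36.5 and 45.8 (Colo800). In A375 the largest member was LUM, at 7.58, 7.78 and 13.96 (A375) and 3.45, 3.33 and 8.17 (Colo800). LUM was lower in Colo800 in each pair, by -0.95, -1.02 and -0.71. THY1, a surface glycoprotein, was at or under 0.0321 in A375 and at 2.68, 4.82 and 3.07 in Colo800, and COL3A1 did not pass 0.106 FPKM. The 6 leukocyte markers summed to 12.5 to 21.1 in A375, nearly all of it LYZ (lysozyme) at 12.2, 19.8 and 21.00, and to 0.475 to 1.27 in Colo800. Keratinocyte markers summed to 12.1 to 21.6 in A375 and 5.43 to 6.85 in Colo800, and KRT5 did not pass 0.22 FPKM. KRT14 was at 9.72, 3.26 and 1.94 (A375) and 0.372, 0.116 and 0.555 (Colo800). KRT10 was at 11.6, 8.69 and 11.3 (A375) and 5.03, 6.40 and 6.29 (Colo800). KRT14 and KRT10 were thus lower in each Colo800 library. Epithelial markers summed to 5.81 to 12.8 and 2.21 to 3.71, led by KRT8 at 12.3, 12.1 and 5.397 in A375, with GRHL2 at or under 0.136. Endothelial markers summed to 3.02 to 10.4 and 1.33 to 2.53. The part of such markers in the matrix and class II differences was not tested.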

How the data were processed

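RNA sequencing of 6 libraries was analysed, 1 per line and hairpin, and the 2 scrambled libraries form the comparison. The deposited values are FPKM from the authors' run of STAR 2.4, Cufflinks 2.2.1 and Cuffnorm (build hg19), per the submitters' processing notes. For the annotation, filters, scaling method and strand setting, details are not given in the sources. Antisense and overlapping genes therefore cannot be told apart. Depth is unknown, and an exact 0 may be a failed estimate.

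Differences were taken on log2(FPKM + 1), which understates the change of low genes, in genes with a mean of at least 1 FPKM over the scrambled pair, and 2-fold was the call. Nothing says how far libraries are separate cultures. The line difference over 6 libraries was fitted with limma 3.58.1 in R 4.3.3 (line and 3 hairpin levels, variance trend, Benjamini-Hochberg adjustment, threshold 0.05) and the fit was tested on simulated data. The hairpin term pairs the libraries of the lines. Of the identifiers, 17037 of 17468 matched the reference gene names, 16157 with the same symbol. Promoter windows came from RefSeq on GRCh38.p14.

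The members and the 50 gene lists (1479 of 1516 entries found) were chosen with earlier results of these data known. Genes named were the 15 with the largest scrambled difference per direction and, not all of them printed, up to 5 members per list, 8 state genes and genes on in one line and off in the other; further list members, named for their role, were chosen after their values were seen. Passed over were LOC, LINC and clone names, antisense names, small RNAs, and genes that bear on sex. Alternatives were the pseudocount, the filter, the scaling, the fit's terms and leaving out a hairpin pair. Some lists and list members are not reported here.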

Additional observations from a re-analysis of the deposited data

How the results depend on the processing

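Of the genes chosen by the naming rule, none changed sign in the scrambled pair under the pseudocounts and scalings run, but sizes did move: among the differences of these genes and the list medians, 156 moved by more than the SD of the 3 pairs with a pseudocount of 5 FPKM, 112 with 0.1 FPKM (150 and 194 did not), 72 with scaling without ribosomal and mitochondrial genes and 8 with median scaling. List medians near 0 changed sign in 12 cases under the scalings, for example semaphorin genes from 0.07 to -0.20, interferon response genes from 0.01 to -0.26 and the MAP kinase pathway from 0.06 to -0.23 without ribosomal and mitochondrial genes in the total. The list counts given above are as deposited and moved with that scaling too. Cholesterol genes then had 6 higher and 5 lower, Hippo genes 2 and 5, and semaphorin genes 5 and 6. Proliferation genes had 17 higher and 0 lower, and MHC class II genes 0 and 12. Of all genes compared, 1310 were then higher and 2056 lower. With a pseudocount of 5 FPKM, 1255 genes were 2-fold higher and 766 lower in the scrambled pair, and 673 and 348 in all 3 pairs. Scaling without ribosomal and mitochondrial genes left 726 higher in all 3 pairs. A minimum mean of 5 FPKM, which tests fewer genes, left 929 lower in the scrambled pair and 439 lower in all 3 pairs. Without the hairpin term, limma called 1992 higher and 1501 lower; the hairpin term is the pairing of libraries across lines. Leaving out 1 hairpin pair gave 2555 to 3272 higher and 1789 to 2458 lower, the lowest without the scrambled pair, which moved the lower count by over 1.5 times. For these counts the cause was not tested. Without a filter limma called 2599 and 2207. Depth limits genes near 1 FPKM, where 1 library per line and hairpin gives no counting error.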

Other observations

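Zinc finger genes, looked at after their values were seen, leaned to the A375 side. Of 338 genes named ZNF with a number that passed the filter (455 in the table), 86 (25.4%) were at least 2-fold lower in Colo800 in the scrambled pair and 14 (4.14%) higher, against 13.4% and 17.5% of all genes; 54 and 9 were so in all 3 pairs. Their median difference was -0.47, -0.39 and -0.41 in the 3 pairs.

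Genes were also placed in RefSeq order, 16493 of them. Among those past the filter, runs of at least 4 consecutive genes that were 2-fold apart the same way in all 3 pairs were listed. Genes below the filter were skipped, so members of a run need not be direct neighbours. Of all genes compared 9.96% were held higher and 7.16% lower, and the number of runs from these shares alone was not computed. There were 26 runs, 20 higher and 6 lower in Colo800. The longest, lower in Colo800, had 10 genes: ZNF568, ZNF420, ZNF383, ZNF569, ZNF570, ZNF573, SIPA1L3, DPF1, YIF1B and C19orf33, with a median scrambled difference of -2.08. Another of 6 lower genes was ZNF708, ZNF493, ZNF43, ZNF91, ZNF675 and ZNF254 (median -2.48), and 6 class II genes from HLA-DRA to HLA-DQB2 formed one as well (median -4.84). Higher in Colo800 were 7 genes from KLHL23 to TLK1 (median 1.76) and 6 from STK39 to PPIG (median 2.07). DNA copy number was not analysed here.

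Around CDKN2B, which was near 0 FPKM in every A375 library, the neighbours were not at 0 in A375: MTAP was at 89.1, 89.5 and 66.2 FPKM and CDKN2A at 4.97, 3.03 and 3.45. On the other side, DMRTA1 was at 2.34, 1.91 and 1.70 FPKM in A375 and 1.66, 1.02 and 1.80 in Colo800.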
